A study of Mus musculus with 2 samples.

Results

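Among the genes of the splicing machinery, 7 were followed because variants in their human counterparts cause syndromes with malformed facial bones: Eftud2, Txnl4a, Sf3b4, Sf3b2, Snrpb, Eif4a3 and Cwc27. They were found by exact match of the gene symbol, and all 7 were present among the 55536 genes of the annotation, of which 22028 are protein-coding. The RNA came from the facial prominences, the swellings that fuse to build the jaws, nose and lips, of mouse embryos of strain B6NCrl at 12.5 days of development. Replicate 1 was a pool of 120 embryos and replicate 2 a pool of 88, each of both sexes, described as healthy, and neither carried a mutation or a treatment. Messenger RNA was copied with an oligo-dT primer from 10 ng of RNA, fragmented by tagmentation and sequenced with added ERCC spike-in RNAs. There was 1 group of 2 libraries, so the data hold levels, transcript structure and the difference between the pools, and no comparison of conditions.

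The spliceosome removes introns from pre-messenger RNA. It is built from small nuclear ribonucleoproteins (snRNPs), each an RNA joined by proteins of its own and, in most of them, wrapped by a ring of Sm proteins. The U1 and U2 snRNPs mark the ends and the branch point of the intron, the U4, U6 and U5 snRNPs join them as a tri-snRNP, and the exon junction complex is left on the messenger RNA where the exons were joined. EFTUD2 is the GTPase of the U5 snRNP and is mutated in mandibulofacial dysostosis with microcephaly, and TXNL4A, a small thioredoxin-like U5 protein, in Burn-McKeown syndrome. SF3B4 and SF3B2 belong to the SF3B complex of the U2 snRNP and are mutated in Nager syndrome and in craniofacial microsomia. SNRPB encodes the Sm proteins B and B' and is mutated in cerebrocostomandibular syndrome, in which variants in a regulatory exon that carries a stop codon are typical. EIF4A3, the RNA helicase that anchors the exon junction complex, is affected in Richieri-Costa-Pereira syndrome, and CWC27, a cyclophilin of the spliceosome, in retinal degeneration with skeletal and facial anomalies.

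In Snrpb the annotation of the mouse genome (build mm10) holds such an exon, and it is shown first because transcripts that carry it could be measured here. It is exon 3 of the transcript Snrpb-203, 124 bases long, at chr2:130176629-130176752 on the minus strand, inside intron 2 of the main transcript Snrpb-201. Read in the annotated frame, it reaches a stop codon after 70 residues of protein, against 231 residues for Snrpb-201, and 5 exon junctions follow the stop. The exon from its first base to the stop, at chr2:130176695-130176752, and the end of exon 2 with the start of intron 2, at chr2:130176995-130177024, read as follows, with the stop codon and the intron in capitals:
Snrpb alternative exon to the stop: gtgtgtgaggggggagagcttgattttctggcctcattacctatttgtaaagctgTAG
Snrpb exon 2 donor: ggaagatcaaGTAAGGAGAGGGCTGTTGGG

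The retained-intron transcript Snrpb-202 keeps the whole of intron 5, 307 bases, and both edges of that intron are shown because reads across them tell the transcript from Snrpb-201. In capitals are 20 intron bases, at chr2:130173016-130173045 for the 5′ edge and chr2:130172719-130172748 for the 3′ edge:
Snrpb intron 5 donor: cctcctccagGTGAGTATCGTCATCAAAGG
Snrpb intron 5 acceptor: CCTGAGCTCTTCTCTTCCAGgtatgatggg

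In Eftud2 the 2 longest coding transcripts differ inside the protein by a single codon, and their junction of exon 2 with exon 3 is shown to make that difference visible. Exon 3 of Eftud2-201 has 166 bases and that of Eftud2-202 has 163, and the proteins have 972 and 971 residues. The 12 bases of exon 3 common to both lie at chr11:102871171-102871182 on the minus strand, and the 3 added bases of Eftud2-201, in capitals, lie next to them, up to position 102871185:
Eftud2-201 exon 2 to exon 3: gatcttgatgagATGgatgaggacgag
Eftud2-202 exon 2 to exon 3: gatcttgatgaggatgaggacgag

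The libraries held 27887968 and 39819334 estimated counts on genes, and spike-ins took 2.85% and 3.10% of all counts. The label of the tissue was matched by its markers: all 6 markers of facial mesenchyme were detected, led by Msx1 at 313 ± 7.24 TPM (a transcript's abundance relative to all transcripts, corrected for its length; SD, n = 2, as for all later errors) and Prrx1 at 143 ± 4.00, and all 5 of the surface ectoderm. Markers of neurons (5 of 5), skeletal muscle (4 of 4), red blood cells (4 of 4), endothelium (4 of 4) and macrophages (3 of 4) were detected too, so the RNA came from several cell types. Of the 5 markers of liver, a tissue outside the face, 3 were detected as well. Their median over the 5 was 1.95 TPM and their highest mean 5.34 TPM, so detection of a marker alone does not show a cell type. Dlx5, a transcription factor gene of the jaw-forming mesenchyme, had levels of 80.8 and 54.8 TPM in replicates 1 and 2, a log2 difference of -0.55, and no other gene of the marker lists differed by 0.5. The summed TPM of the neuron markers was 456 in replicate 1 and 353 in replicate 2, and that of the muscle markers 295 and 357. The part of such differences in the values below was not tested, and in bulk tissue fewer cells of a type and less RNA per cell cannot be told apart.

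All 7 genes were expressed in both pools, and 6 of them at 100 TPM or more in both libraries. In the older annotation release M4 (all other levels are from release M21 unless M4 is named), and over protein-coding transcripts alone, this held for 5, since Txnl4a was lower there. Detection, defined as at least 1 TPM in both libraries, was met by 60.7% of all protein-coding genes, and a level of at least 100 TPM in both by 12.0% of the detected ones. The median of the 7 genes was 188 TPM, against 21.5 TPM over all detected protein-coding genes. TPM corrects for transcript length, so levels of different genes can be set side by side on this scale as far as reads cover transcripts evenly. Evenness of coverage was not tested. A gene's TPM also rests on the transcript models among which its reads are divided, so ranks and folds between genes hold for the annotation named. The highest level, that of Snrpb, was 18.9 times the lowest, that of Cwc27.

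In the U5 snRNP, Eftud2 (ENSMUSG00000020929.14, chr11:102838473-102880985, minus strand) had levels of 193 and 182 TPM in replicates 1 and 2, or 188 ± 8.02, from 7912 and 11257 counts. This placed it at percentile 94.4 of the detected protein-coding genes. Its partner Txnl4a (ENSMUSG00000057130.12, chr18:80206795-80225855, plus strand) stood at 142 and 135 TPM, or 139 ± 5.19, from 2310 and 3015 counts, at percentile 91.8. Both genes were a little lower in replicate 2 on the TPM scale.

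In the SF3B complex, Sf3b2 (ENSMUSG00000024853.10, chr19:5273932-5295455, minus strand), whose protein holds Sf3b4 on the pre-messenger RNA, stood at 303 and 317 TPM, or 310 ± 9.77, from 12566 and 18614 counts, at percentile 96.9. Sf3b4 (ENSMUSG00000068856.3, chr3:96172332-96177564, plus strand), which binds RNA next to the branch point, stood at 142 and 148 TPM, or 145 ± 4.21, from 4713 and 6957 counts, at percentile 92.3. Both were a little higher in replicate 2.

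Snrpb (ENSMUSG00000027404.15, chr2:130171414-130179403, minus strand) had the highest level of the 7, with 508 and 485 TPM, or 496 ± 16.0, from 9844 and 13258 counts, at percentile 98.3. Eif4a3 (ENSMUSG00000025580.15, chr11:119288363-119300089, minus strand) stood at 284 and 268 TPM, or 276 ± 11.3, from 6249 and 8608 counts, at percentile 96.3. Cwc27 (ENSMUSG00000021715.12, chr13:104631140-104817142, minus strand) stood apart at the low end with 25.4 and 27.0 TPM, or 26.2 ± 1.15, from 911 and 1380 counts. Its percentile of 55.6 was near the middle of the detected genes.

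The order from the top was Snrpb, Sf3b2, Eif4a3, Eftud2, Sf3b4, Txnl4a and Cwc27 in each library. Neighbours in this order differed by more than the sum of their SDs in every case but that of Sf3b4 and Txnl4a, whose means were 6.71 TPM apart with SDs that sum to 9.40. Txnl4a exceeded Cwc27 by 5.29 times, the widest step. The order depended in part on which transcripts were in the annotation, as described below.

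**Figure D1:**
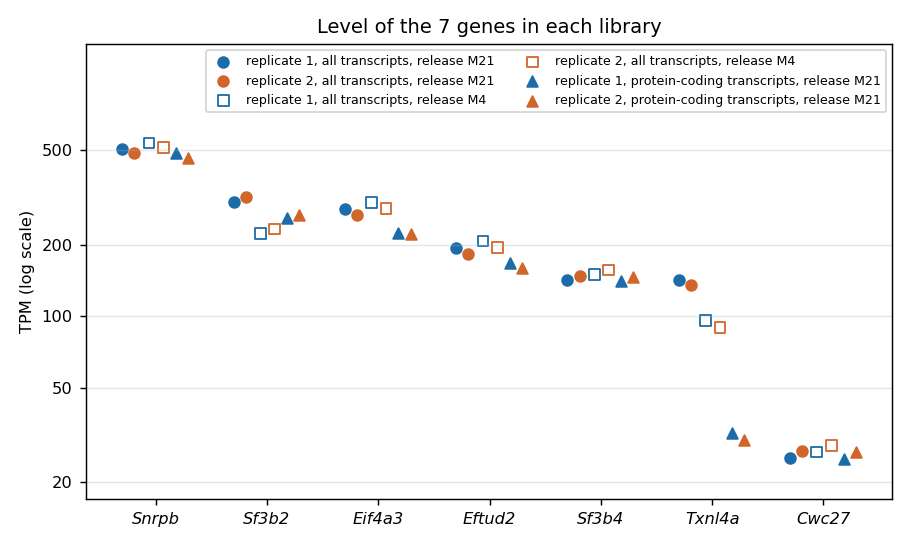
Level of each gene in TPM on a log axis. Circles are all transcripts in the newer annotation M21, squares all transcripts in the older annotation M4, and triangles the transcripts annotated as protein-coding in M21, with replicate 1 in blue and replicate 2 in orange; the replicates lie close together for every gene, while the triangles of Txnl4a, near 31.1 TPM, lie far below its circles, near 139 TPM.

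The pools agree closely on all 7 genes. On the scale log2(TPM + 1), replicate 2 differed from replicate 1 by 0.06 for Sf3b4 and Sf3b2, by 0.09 for Cwc27, by -0.07 for Snrpb, by -0.08 for Txnl4a and Eif4a3 and by -0.09 for Eftud2. None reached a log2 difference of 0.5, a size reached by 2.09% of the detected protein-coding genes, so a count of 0 of 7 is near that background. The median of all those genes was 0.00.

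Counting error is small for genes of this depth, and for 4 of the 7 the exact 95% interval of the count ratio left out 1. The share of all detected genes for which it does so was not computed, so this count has no background beside it. The intervals were computed with gene totals as the scale only, and which of them hold 1 can change with the scale. The ratio of replicate 2 to replicate 1, scaled by the gene totals, was 0.943 for Snrpb (interval 0.919 to 0.968), 0.914 for Txnl4a (0.866 to 0.965), 0.965 for Eif4a3 (0.934 to 0.997) and 1.04 for Sf3b2 (1.01 to 1.06). The intervals of Eftud2 (0.968 to 1.03), Sf3b4 (0.996 to 1.07) and Cwc27 (0.975 to 1.15) held 1. These intervals compare 2 libraries and cover counting error only, so they say nothing of how far further pools would vary. The signs of such small differences also moved with the scaling: with the totals of the spike-ins as the scale, all 7 were lower in replicate 2, by log2 values from -0.04 for Cwc27 to -0.26 for Txnl4a.

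For Eftud2 the TPM and the counts gave different sizes. Its TPM differed by -0.09 on the log2 scale and its counts by -0.01. The short coding transcript Eftud2-211 took 45.2 TPM in replicate 1 and 35.7 TPM in replicate 2, whereas Eftud2-202 took 101 and 102 TPM.

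**Figure D2:**
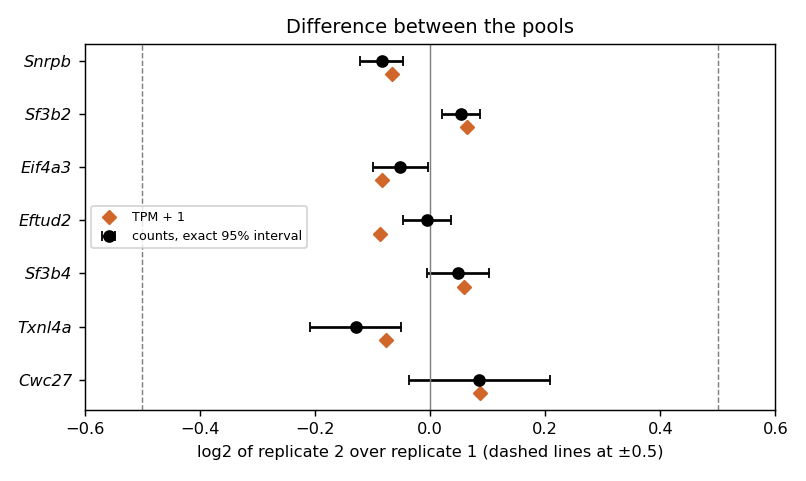
Log2 ratio of replicate 2 to replicate 1 for each gene. Black points are estimated counts scaled by gene totals with their exact 95% interval and orange diamonds are TPM with 1 added; all points lie well inside the dashed lines at 0.5, and the interval is widest for Cwc27, the gene with the fewest counts.

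The annotation gives the 7 genes 41 transcripts, and 35 of them had a share above 0 in both libraries. By type, 14 are annotated as protein-coding, 17 as retaining an intron, 3 as targets of nonsense-mediated decay (the pathway that degrades messages with an early stop) and 7 as processed transcripts with no reading frame. The deposited tables divide each gene's TPM among its transcripts in percent, and the largest difference of such a share between the libraries was 3.94 points. A short transcript needs few reads to take a large share of the TPM, so the share of the counts is given beside it. Of the 17 retained-intron models, 3 hold a whole intron of the main transcript and the rest pieces of introns, so their share is no measure of how often a whole intron stays in.

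Sf3b4, Cwc27 and Snrpb were carried almost entirely by their main coding transcript. Sf3b4-201, which encodes 424 residues, took 98.7% ± 0.10 of the TPM of Sf3b4, and its retained-intron transcript Sf3b4-202 took 1.35% ± 0.10. Cwc27-201, which encodes 469 residues, took 98.7% ± 0.37 of Cwc27. Snrpb-201 took 95.6% ± 0.30 of Snrpb.

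The Snrpb transcript with the stop-bearing exon shown above, Snrpb-203, took 1.13% of the TPM of Snrpb in replicate 1 and 1.04% in replicate 2. This was 5.71 and 5.04 TPM from 109 and 136 estimated counts, at a mean level 88.2 times below Snrpb-201. Snrpb-202 shares 122 bases of that exon and keeps intron 5, and it took 1.03% and 0.82%. Snrpb-204, which runs 163 bases into intron 2 across the exon 2 donor shown above, took 2.05% and 2.77%. Only 2 bases of Snrpb-203 lie in no other Snrpb transcript, so its reads are told from those of Snrpb-202 mainly by how they are joined to other exons. A message that is degraded is counted at its remaining level, and the rate at which it is made was not measured.

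In Eftud2, Eftud2-202 took 54.2% ± 2.79 of the TPM and 76.6% of the counts, and Eftud2-201, with the added codon, took 11.7% ± 0.52 of the TPM and 16.5% of the counts. The TPM assigned to Eftud2-202 was 4.63 times that of Eftud2-201, and in both libraries the form without the added ATG was the higher. Of the 3324 bases of Eftud2-201, 3321 lie in exons of Eftud2-202. Only 18 bases of Eftud2-202 lie in no other Eftud2 transcript. The ratio therefore rests on reads at few positions. The coding transcript Eftud2-211, a partial model of 397 bases with 97 residues, took 21.5% ± 2.64 of the TPM but 2.80% of the counts. All of its bases lie in exons of Eftud2-202, so its share rests on how the quantification divided shared reads. The 7 retained-intron transcripts took 11.2% ± 0.62 of the TPM together, led by Eftud2-210 at 3.67% and Eftud2-207 at 3.52%. Of the transcripts annotated for nonsense-mediated decay, Eftud2-205 took 2.39% and 0.59%, from 39.9 and 13.1 counts.

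In Sf3b2, Sf3b2-201, which encodes 878 residues, took 60.5% ± 0.19 of the TPM and 84.0% of the counts. The partial coding model Sf3b2-202, with 308 residues in 933 bases, took 24.6% ± 0.92 of the TPM and 9.11% of the counts. All of its bases lie in exons of Sf3b2-201, so its share rests on how the quantification divided shared reads. The 6 retained-intron transcripts took 15.0% ± 0.72 together, and Sf3b2-205 alone took 6.92%. Among them, Sf3b2-204 reads through the whole of intron 3, 979 bases, and took 1.27% ± 0.23 of the TPM.

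In Eif4a3, the single coding transcript with reads, Eif4a3-201 (411 residues), took 80.9% ± 2.33 of the TPM and 94.1% of the counts. The 4 processed transcripts took 19.1% ± 2.33 of the TPM together. Eif4a3-203, of 466 bases, accounted for most of this with 15.1% ± 2.13 of the TPM and 4.59% of the counts. Its share was 16.6% in replicate 1 and 13.6% in replicate 2. None of its bases lies outside the other Eif4a3 transcripts, so this share too rests on how shared reads were divided.

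Txnl4a had the lowest coding share of the 7 genes by TPM. Its coding transcripts took 22.6% of the TPM in replicate 1 and 22.3% in replicate 2, against 80.9% to 98.7% for the other 6 genes. It was the only one of the 7 under 50% in both libraries. That state was met by 10.9% of the 12094 detected protein-coding genes with at least 2 transcripts, so 1 of 7 is near the background. The median coding share of the 12094 genes was 88.3%, and 2.98% of them had a lower one than Txnl4a.

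By counts, the same gene looked different. The main coding transcript Txnl4a-204, which encodes the full protein of 142 residues, took 14.3% ± 0.52 of the TPM but 65.7% ± 0.98 of the counts. The retained-intron transcript Txnl4a-202, a model of 419 bases, took 41.3% ± 0.42 of the TPM and 15.2% of the counts, and the processed transcript Txnl4a-203, of 461 bases, took 36.2% ± 0.61 and 15.1%. Txnl4a-201, a coding model of 517 bases, took 8.11% ± 0.34 of the TPM and 3.91% of the counts. In all, the coding transcripts held 69.7% of the counts of Txnl4a.

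The models differ sharply in length. Txnl4a-204 has 4078 bases, and 3505 of them follow the stop codon, within a last exon of 3677 bases. Txnl4a-202 reads only 72 bases into intron 3 and 45 into intron 1, and 72 of its bases lie in no other Txnl4a transcript. Txnl4a-203 starts at an exon of its own with 197 bases in no other transcript, and Txnl4a-201 has 115 such bases.

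**Figure D3:**
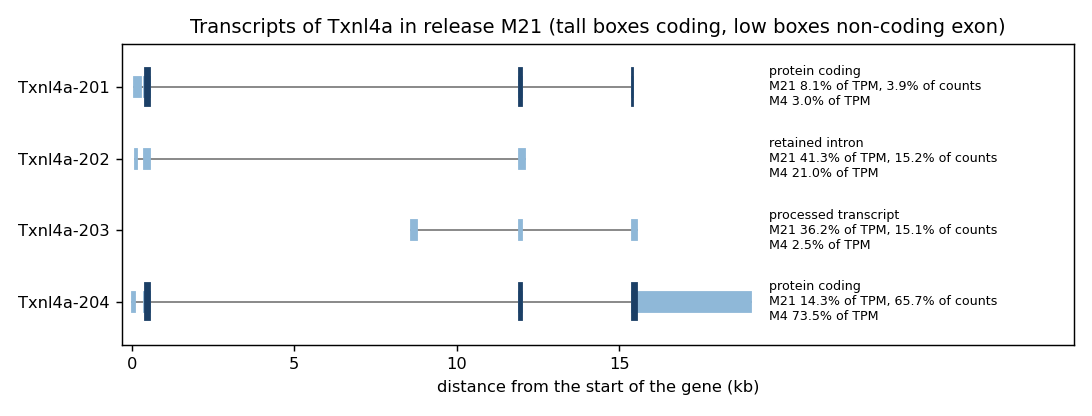
The 4 annotated transcripts of Txnl4a drawn to scale by distance from the start of the gene in kb, with tall dark boxes for coding and low light boxes for non-coding exon sequence. The text at the right gives each transcript's type, its mean share of the gene's TPM and counts in annotation M21 and its share of the TPM in annotation M4; the longest model, Txnl4a-204, has 65.7% of the counts but 14.3% of the TPM in M21.

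**Figure D4:**
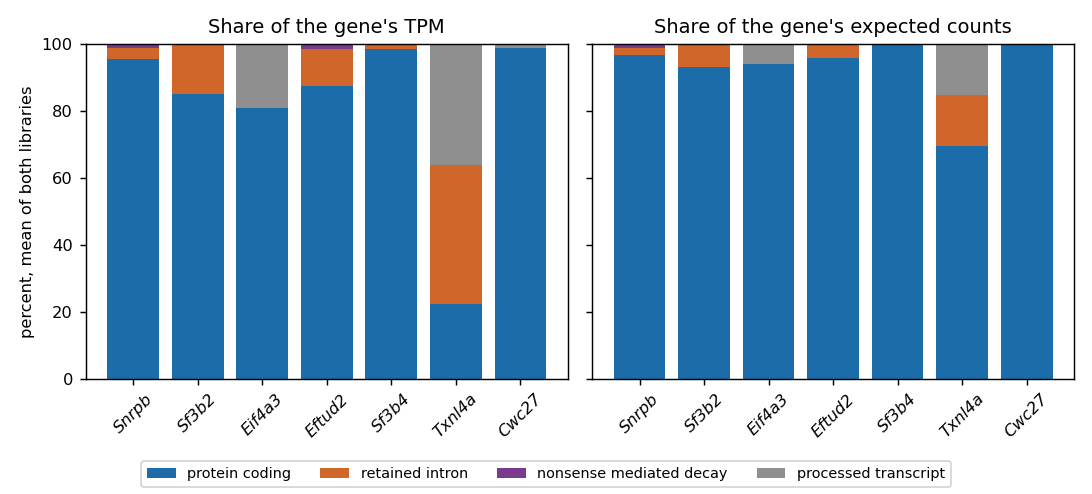
Share of each gene taken by transcripts of each annotated type, in percent, as the mean of both libraries, by TPM on the left and by estimated counts on the right. Txnl4a is the only gene with most of its TPM outside coding transcripts (coding share 22.5%), and by counts its coding share is 69.7%.

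A further gene lies on the same strand at the start of Txnl4a. Gm16286, annotated as protein-coding at chr18:80206765-80212741, overlaps Txnl4a by 5947 bases and shares an identical second exon with it. It stood at 208 and 207 TPM, above Txnl4a, from 5503 and 7789 counts. Its exons hold 75.2% of the bases of Txnl4a-201, 58.0% of Txnl4a-202 and 7.28% of Txnl4a-204, and none of Txnl4a-203. Reads from the shared bases were divided between the genes by the authors' quantification, so the levels of Txnl4a-201 and Txnl4a-202 are uncertain.

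Of the other members, Snrpb and Eif4a3 overlapped no annotated gene. Eftud2 overlaps the opposite-strand Gm26668 (1.01 and 0.90 TPM) with 2261 shared exon bases, more than the 457 that Txnl4a shares with Gm16286. Sf3b2 overlaps the antisense AC125059.3 (1.22 and 1.08 TPM) with 194 shared exon bases, and Sf3b4 the antisense Gm17690 (6.23 and 6.41 TPM) by 85 bases, beside the small nucleolar RNA gene Gm22027 inside it. Cwc27 overlaps the opposite-strand Srek1ip1, named for a protein that binds the splicing regulator Srek1, which stood at 19.2 and 20.8 TPM, near the level of Cwc27 itself, with 152 shared exon bases, and the antisense 2610204G07Rik (0.61 and 0.51 TPM). No source used here says whether the counting used strand, so reads of antisense partners may be mixed at the shared bases.

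The authors counted the same reads against 2 releases of the gene annotation, M21 and the older M4, which shows how far a level rests on the list of transcripts. Of the 7 genes, 1 was higher in M21 by a log2 ratio of at least 0.5 in both libraries. Of the 13284 genes tested 5.20% were, so 1 of 7 is too few to set apart from that background. The gene was Txnl4a, with log2 ratios of 0.56 and 0.59. It stood at 95.8 and 89.4 TPM in M4, although its counts hardly moved, from 2210 and 2868 in M4 to 2310 and 3015 in M21. In M4 the model of Txnl4a-204 has 1756 bases in place of 4078, and it took 73.5% ± 1.51 of the TPM, with 22.2% and 19.8% in replicates 1 and 2 for Txnl4a-202 and 2.45% ± 1.29 for Txnl4a-203. The coding share of Txnl4a was thus 76.6% in M4, and no gene of the 7 was under 50% there.

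Sf3b2 came next, with log2 ratios of 0.45 and 0.44 between the releases. M4 lists 1 transcript of Sf3b2 and M21 lists 8, and the gene stood at 222 and 233 TPM in M4 from 12164 and 18067 counts. Eif4a3, at 301 and 284 TPM in M4, was above Sf3b2 there, so these neighbours change places with the annotation. The other 5 genes were lower in M21 by log2 ratios of -0.10 to -0.07, near the median of -0.06 over all genes tested.

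Counted over the protein-coding transcripts of M21 alone, the 7 genes kept their order, and Txnl4a came down near the level of Cwc27. The coding transcripts stood at 474 ± 16.7 TPM for Snrpb, 264 ± 6.07 for Sf3b2, 223 ± 2.67 for Eif4a3, 164 ± 5.76 for Eftud2, 143 ± 4.00 for Sf3b4, 31.1 ± 1.42 for Txnl4a and 25.9 ± 1.22 for Cwc27. Txnl4a then exceeded Cwc27 by 1.20 times, against 5.29 times over all transcripts of M21 and 3.35 times over all transcripts of M4. In M4 the coding transcript Txnl4a-204 alone took 71.5 and 64.8 TPM in replicates 1 and 2, and Cwc27-201 took 26.4 and 28.2. Txnl4a thus came near Cwc27 over coding transcripts in M21 only.

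The 7 genes were set among those of the proteins they work with. All 78 genes of the 8 lists of spliceosome and exon junction proteins were detected, against 60.7% of all protein-coding genes. Of the 78, 35 stood at 100 TPM or more in both libraries, against 12.0% of the detected protein-coding genes. The median of the 78 was 83.1 TPM. None of the 78 differed between the pools by a log2 ratio of 0.5. That size was reached by 2.09% of the detected protein-coding genes, so 0 of 78 is near the background. These counts include the 7 genes, and they describe the lists without a test.

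Among 16 proteins of the U5 snRNP and the tri-snRNP (median 75.0 TPM), Eftud2 ranked 2 and Txnl4a ranked 4, and in the annotation M4 Txnl4a ranked 7 and Eftud2 again 2. Snu13, which binds the U4 RNA, was first at 201 ± 2.01 TPM and the WD-repeat protein gene Snrnp40 was the third at 149 ± 3.08. These ranks count all transcripts of a gene. The coding transcripts of Eftud2 together stood at 164 ± 5.76 TPM, and Eftud2-202 alone at 102 ± 0.89. The large U5 proteins that contact Eftud2 were lower, with 69.5 ± 0.69 TPM for the helicase gene Snrnp200 and 59.1 ± 1.49 for Prpf8, the core of the catalytic centre; both lie outside the rule for named genes and were chosen after their values were seen. The lowest were Ddx23 at 23.0 ± 0.44 and Prpf4 at 22.5 ± 1.50.

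Among 12 proteins of the U2 snRNP with SF3A and SF3B (median 149 TPM), Sf3b2 ranked 1 and Sf3b4 ranked 7. In M4 Sf3b2 ranked 2, below Sf3b1 at 260 and 279 TPM, and Sf3b4 again 7. Sf3b1, the scaffold of SF3B, stood at 258 ± 13.2 TPM and Sf3b6, which contacts the branch point, at 239 ± 9.02. Sf3a2 (53.5 ± 3.60) and Sf3b5 (30.5 ± 1.17) were the lowest. In M21, Sf3b2 thus exceeded Sf3b5, a subunit of the same complex, by 10.2 times at the level of RNA. This fold depends on the transcript models. In M4 the means were 228 TPM for Sf3b2 and 32.2 TPM for Sf3b5, and in M21 Sf3b2-201 alone stood at 188 ± 6.51 TPM.

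Snrpb was the third of 8 genes for proteins of the Sm ring (median 194 TPM), below Snrpe at 573 ± 35.6 and Snrpg at 528 ± 42.8 TPM. Both libraries gave this order, though the gap between Snrpg and Snrpb was smaller than the sum of their SDs. In M4 Snrpb again ranked 3, but Snrpg (726 and 677 TPM in replicates 1 and 2) was above Snrpe (631 and 578). Snrpd1 stood at 249 ± 6.09, Snrpd3 at 138 ± 11.1, Snrpd2 at 123 ± 10.1 and Snrpf at 114 ± 1.97 TPM. Snrpd3 ranked 5 and Snrpd2 ranked 6 in M21, against 7 and 4 in M4. Snrpn, the imprinted gene that encodes a close relative of the Snrpb protein, was the lowest at 54.0 ± 7.74 TPM, 9.19 times below Snrpb.

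Eif4a3 led 9 genes of the exon junction complex and its partners (median 120 TPM), with Rnps1 at 269 ± 8.76 TPM within the spread of Eif4a3. The core partners Magoh and Rbm8a, which lock Eif4a3 on RNA, stood at 172 ± 2.83 and 133 ± 3.54, and Magohb at 49.3 ± 2.33. Acin1 stood at 120 ± 4.55, Casc3 at 42.3 ± 0.08, Cwc22, which brings Eif4a3 to the spliceosome, at 29.0 ± 1.30, and the decay factor gene Upf3b at 16.3 ± 1.46. The translation helicases closest to Eif4a3, Eif4a1 and Eif4a2, stood at 467 ± 41.4 and 193 ± 3.41. Its copies Eif4a3l1 and Eif4a3l2, listed as Gm8994 and Gm5580, had 0 counts and 0.44 TPM, so few reads of Eif4a3 were assigned to them.

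Cwc27 ranked 8 of 9 spliceosomal cyclophilins (median 85.7 TPM), proline isomerases or their inactive relatives. Ppig stood at 140 ± 7.04, Ppil2 at 125 ± 10.5, Ppil1 at 124 ± 4.45, Ppih at 95.9 ± 3.42, Ppie at 85.7 ± 1.20, Ppil3 at 44.2 ± 3.16 and Ppil4 at 35.3 ± 2.43. Below Cwc27 was Ppwd1 at 12.9 ± 0.77. Txnl4b, the relative of Txnl4a, stood at 17.1 ± 0.73 TPM.

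**Figure D5:**
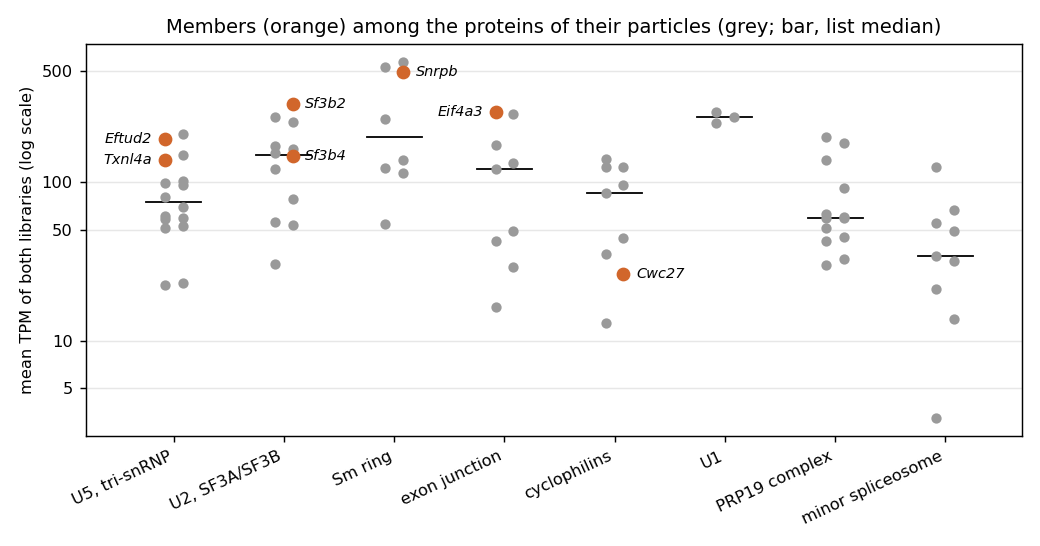
Mean TPM of both libraries on a log axis for the genes of each particle, with the members in orange and the list median as a bar. In M21, which is plotted, Sf3b2 and Eif4a3 lead their lists (in M4 Sf3b2 ranked 2), Snrpb is the third of its list, and Cwc27 lies under the cyclophilins' median of 85.7 TPM.

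The lists that hold none of the 7 genes ran from 3.26 TPM (Zrsr1) to 276 TPM (Snrpc). The 3 proteins particular to the U1 snRNP stood at 276 ± 4.32 (Snrpc), 259 ± 8.86 (Snrnp70) and 237 ± 11.8 (Snrpa) TPM. The PRP19 complex and its neighbours, 13 genes, had a median of 59.8 TPM, from Bcas2 (193 ± 0.72), Bud31 (177 ± 9.97) and Cwc15 (138 ± 0.93) to Prpf19 (32.8 ± 0.45) and Crnkl1 (30.0 ± 3.27). The 9 proteins of the minor spliceosome, which removes a rare class of introns, had a median of 34.0 TPM. Zcrb1 (124 ± 3.25) was the highest there and Zrsr1 (3.26 ± 0.58) the lowest, with Zrsr2 at 66.5, Snrnp25 at 55.0, Zmat5 at 49.3, Rnpc3 at 34.0, Snrnp48 at 31.7, Snrnp35 at 20.8 and 21.2 in replicates 1 and 2 and Pdcd7 at 13.7 TPM between them.

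Over the 78 genes, 6 differed between the annotations by a log2 ratio of at least 0.5 in both libraries: Txnl4a, its tri-snRNP neighbour Sart1 (1.14 and 1.19), Sf3b6 (0.59 and 0.64), Rbm8a (0.59 and 0.52), Snrpd3 (1.12 and 1.11) and, lower in M21, Snrpd2 (-1.43 and -1.46). Over all genes tested, 5.20% were higher in M21 by that size, 0.956% lower and 6.16% either, so 6 of 78 is near the background. Snrpd3 and Snrpd2 stand beside Snrpb in the Sm ring, whose median was 298 TPM in M4 against 194 in M21. Snrpb itself hardly moved, with log2 ratios of -0.08 in both libraries.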

How the data were processed

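PolyA-selected RNA of 2 pools was measured. Per the file headers, each library has gene and transcript tables with expected counts (estimated counts, since reads that fit several transcripts are divided), TPM and FPKM, which the authors made for build mm10. The deposited descriptions name annotation releases M21 and M4. The deposited percent value IsoPct is a transcript's share of its gene's TPM. No source used here names the aligner, the quantifier or the strand setting.

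From these values, means with SDs, percentiles, log2(TPM + 1) differences and exact 95% binomial intervals of the ratio of rounded counts were computed with Python 3.11.15, numpy 2.4.6, pandas 2.3.3 and scipy 1.17.1. The intervals cover counting error only, and reads carry no molecular identifiers. Scalings by edgeR 4.0.16 (TMM) and DESeq2 1.42.0 served as alternatives, as did pseudocounts, filters and the other release. The count ratio and its interval were run on simulated counts that held counting error only. That check cannot show how the interval behaves with other spread between libraries, and it did not cover the log2(TPM + 1) difference. Depth is 27887968 and 39819334 gene counts. Spike-in rows (2.85% and 3.10%) and rows named by number were left out of gene totals but are part of the total to which the deposited TPM was scaled. All 55536 gene identifiers of M21 and 42462 of 43346 of M4 matched the annotation, whose transcripts (GENCODE M21) gave the structures and sequences. No sequence is shown for Txnl4a.

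The 7 genes and all lists were chosen with earlier results of these data known. Named were all 7 genes; from each list of spliceosome or exon junction genes the 3 highest and 2 lowest genes, every gene of such lists of up to 9, and every gene past a log2 difference of 0.5; every gene overlapping a member; of the marker lists only the 2 leading mesenchyme genes and the gene past that difference, chosen after their values were seen; and of each member the leading transcript, those at 5% or more and those retaining introns or marked for decay. Of the last 2 kinds only the larger are given singly. No test between groups was made, since there is 1 group.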

Additional observations from a re-analysis of the deposited data

How the results depend on the processing

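Every value rests on 2 pools of 1 stage, and the depth limits single transcripts with few counts more than genes. Detection of all 7 genes and the absence of a log2 difference of 0.5 between the pools held under each alternative tried. Mean TPM of Snrpb, Sf3b2, Eif4a3, Eftud2, Sf3b4, Txnl4a and Cwc27 was 524, 228, 293, 201, 153, 92.6 and 27.6 in release M4, and 533, 333, 296, 202, 156, 149 and 28.1 both when rescaled to genes without spike-ins and from FPKM. The posterior mean TPM of Sf3b4 was 141. In alternatives chosen after seeing the data, coding transcripts alone gave 474, 264, 223, 164 and 31.1 TPM for Snrpb, Sf3b2, Eif4a3, Eftud2 and Txnl4a, and the transcript with the most reads gave 474, 188, 223, 102 and 19.9. The median over the 7 genes, 188 TPM, was 201 in M4, 202 when rescaled or from FPKM, 164 over coding transcripts and 143 over the transcript with the most reads. Genes past the difference of 0.5 between pools were 0.993% at a minimum of 5 TPM, against 2.09%. The number of the 7 genes under a 50% coding share was 1, and it was 0 by expected counts and 0 in M4. Genes at 100 TPM or more were 6 of the 7, and 5 in M4, over coding transcripts and over the transcript with the most reads. Sf3b2 and Eif4a3 changed places in M4 and over the transcript with the most reads, where Eftud2 and Sf3b4, and Txnl4a and Cwc27, did so too. The small pool difference changed sign for 1 gene, Eftud2, to 0.01 under TMM and DESeq2 scaling, and for 3 genes under spike-in scaling. The median of the Sm ring list was 298 TPM in M4 against 194. Without either replicate the order of the 7 genes was kept, with Snrpb 18.0 to 20.0 times above Cwc27. Beyond these, the cause of the moves was not tested.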
